A study of Mus musculus with 6 samples.

Results

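The Ly6 genes encode small surface proteins that mark cells of the mouse bone marrow. The rule took every gene of the count table whose symbol is Ly6a, Ly6c1, Ly6c2, Ly6d, Ly6e or Ly6g, and found all 6, in a table where each of the 5 deeper libraries had counts for 20592 to 22607 genes. All 6 passed the filter on low counts in both fits described here, as did 16190 genes in the fit of 5 libraries and 14756 in the fit of 6. RNA was sequenced from 6 libraries labelled as mesenchymal stromal cells of mouse bone marrow, 3 from Hes1 knockout mice (Hes1 KO) and 3 from wild-type mice (WT), all on a C57BL/6 background. Hes1 is a transcriptional repressor downstream of Notch. The labels give the knockout as Hes1fl/+ mice crossed with Prx1Cre mice, whose Prx1 promoter and enhancer drive Cre in the mesenchyme of the early limb bud and in part of the craniofacial mesenchyme. The number of deleted alleles, whether WT mice carried Cre or the floxed allele, the age and sex of the animals, and whether each library came from its own animal are not given. The p-values therefore describe the spread among the libraries, which may be technical.

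Ly6 proteins share a compact three-finger fold held by disulphide bonds and are tethered to the outer membrane leaflet by a glycosylphosphatidylinositol (GPI) anchor. In the marrow they serve as sorting antigens. Ly6g is carried by neutrophils, and Ly6c proteins mark monocytes and are also found on endothelial and some lymphoid cells. Ly6d marks progenitors committed to the B lineage and is found on plasmacytoid dendritic cells. Ly6a, known as stem cell antigen Sca-1, is found on stem and progenitor cells, stromal cells and endothelium and is induced by interferon. Ly6e is widely expressed, responds to interferon and affects the entry of several viruses.

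The genes lie near each other on chromosome 15, in the RefSeq order Ly6d, Ly6e, Ly6a, Ly6c1, Ly6c2 and Ly6g on assembly GRCm38.p6, with other genes between some of them. Ly6c1 and Ly6c2 are near-identical copies, which bears on how far their counts can be told apart. Their coding sequences in the GENCODE M21 transcripts (GRCm38) were 97.7% identical, with 9 differences in 396 bases, and 6 of these fell in the first 90 coding bases. Those bases are printed from the start codon, on the minus strand of chromosome 15, with the differing bases in capitals.
Ly6c1: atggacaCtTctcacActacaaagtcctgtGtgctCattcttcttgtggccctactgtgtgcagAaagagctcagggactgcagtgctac
Ly6c2: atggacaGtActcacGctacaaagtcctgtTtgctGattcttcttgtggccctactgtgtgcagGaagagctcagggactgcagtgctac
Of all 50-base windows of the gene's transcripts, 32.8% in Ly6c1, 19.0% in Ly6a and 14.4% in Ly6c2 also occurred in a transcript of another gene. The share was 0.448% in Ly6g and 0% in Ly6d and Ly6e. The split of reads between Ly6c1, Ly6c2 and their neighbours is therefore less certain than the counts of Ly6d, Ly6e and Ly6g, and the read length is not given.

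RefSeq promoter sequences (GRCm38.p6, 250 bases before to 50 after the transcription start) were matched for 3 of the 6 genes, Ly6c1, Ly6c2 and Ly6g. Ly6a, Ly6d and Ly6e had no entry among these sequences and could not be compared. The 3 matched genes were also those with the largest fold changes of the members in the 5 deep libraries. Where a gene had several promoter entries, the combination with the highest summed identity among these genes and the neighbouring gene Ly6a2 was taken. The identities given below were thus selected to be high. Capitals mark GAGGAAGT, a core of the binding site of the myeloid factor PU.1, and TATAAA, the letters of a TATA box, at any position.
Ly6c1, chr15:75048788-75049087, minus strand: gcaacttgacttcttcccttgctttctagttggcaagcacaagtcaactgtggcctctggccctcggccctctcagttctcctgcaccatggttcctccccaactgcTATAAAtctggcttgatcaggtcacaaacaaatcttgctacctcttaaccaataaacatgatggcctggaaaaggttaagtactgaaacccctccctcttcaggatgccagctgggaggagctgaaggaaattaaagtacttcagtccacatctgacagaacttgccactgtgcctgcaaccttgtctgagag
Ly6c2, chr15:75111922-75112221, minus strand: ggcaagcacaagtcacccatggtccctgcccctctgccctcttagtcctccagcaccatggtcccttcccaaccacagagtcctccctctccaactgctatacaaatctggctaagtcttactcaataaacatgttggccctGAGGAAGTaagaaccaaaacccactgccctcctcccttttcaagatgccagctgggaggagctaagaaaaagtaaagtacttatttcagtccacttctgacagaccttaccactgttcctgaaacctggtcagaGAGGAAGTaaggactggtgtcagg
Ly6g, chr15:75155079-75155378, plus strand: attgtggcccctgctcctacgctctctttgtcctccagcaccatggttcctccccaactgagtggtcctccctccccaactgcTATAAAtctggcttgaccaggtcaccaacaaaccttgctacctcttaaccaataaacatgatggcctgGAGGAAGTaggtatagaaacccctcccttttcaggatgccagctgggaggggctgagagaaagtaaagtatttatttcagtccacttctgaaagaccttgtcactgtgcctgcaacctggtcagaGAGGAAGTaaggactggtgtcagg
The Ly6c2 and Ly6g windows were 72.5% identical, Ly6c1 and Ly6g 63.7%, and Ly6c1 and Ly6c2 62.3%, with alignment gaps counted as differences. The Ly6c1 window was placed differently against the shared sequence. Its TATAAA began at -143 from the start site against -167 in Ly6g, and its CACAAG at -213 against -244 in Ly6c2. The lower values of Ly6c1 include this offset and do not show how far the promoters themselves differ. GAGGAAGT, searched on both strands, occurred in the Ly6c2 window with its first base at -108 and 27 from the start site and in the Ly6g window at -99 and 27. It had no match in the Ly6c1 window, which ended inside the stretch that aligns with the match at 27 in the other windows. Of 32851 mouse promoters of the same length, 3.20% held it. TATAAA, held by 13.6% of promoters, was matched in Ly6c1 and Ly6g. The N box CACNAG, the form of site bound by Hes1, was matched in all 3 windows and in 42.5% of promoters. These matches describe the letters of the windows only.

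The Hes1 KO libraries held 20563116 to 22131465 counts, WT replicate 2 held 5812598, WT replicate 3 held 12109170 and WT replicate 1 held 66167. In WT replicate 1 a single count equals 15.1 CPM (counts scaled to the library's total), and a gene at 0 there allows up to 45.3 CPM (3 counts). WT replicate 1 is therefore given apart, and the comparison was fitted on all 6 libraries and on the 5 others. Levels of the 5 deep libraries are in CPM scaled by trimmed means (TMM). Hes1 itself had 185, 220 and 255 counts in the KO libraries, 310 and 345 in WT replicates 2 and 3 and 0 in WT replicate 1, and fell in the 5-library fit (log2 fold change -2.55, SE 0.31, adjusted p = 0.0294, edgeR). The labelled stromal identity was not prominent in the markers: 13 stromal genes summed to 0.0194% to 0.0333% of KO counts, 0.00804% to 0.0226% in WT replicates 2 and 3 and 0.0967% in WT replicate 1. Runx2 alone supplied most of these counts in every library, 61 of 64 in WT replicate 1 and 5767 of 7363 in KO replicate 1. Prrx1, whose promoter names the Cre line, had at most 2 counts in any library. By contrast 15 neutrophil genes summed to 4.92% to 13.3% of KO counts and 0.0364% to 1.54% in the deep WT libraries. In bulk RNA, fewer cells of a type and less RNA per cell cannot be told apart.

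Across the 6 Ly6 genes, KO libraries were higher than both deep WT libraries in Ly6c1, Ly6c2, Ly6g and Ly6e and overlapped them in Ly6a and Ly6d on the TMM scale. On plain CPM all 6 lay above both, with Ly6d at 125, 129 and 127 in KO against 38.4 and 105, and Ly6a at 8.72, 6.00 and 5.11 against 1.03 and 2.15. On the TMM scale 31.2% of the tested genes had every KO library above both deep WT libraries and 24.5% had every KO library below. In the 5-library fit Ly6c1 was the member that passed the threshold, 1 of 6, and 15.5% of all 16190 tested genes passed (7.44% higher and 8.09% lower in KO). Ly6c1 had 2 counts in each deep WT library and passed the low-count filter of that fit through the KO libraries only. A gene this low in WT could be tested only if it was high in KO. At an unadjusted p under 0.05 the same fit held 3 members, beside 39.8% of all genes, and DESeq2 called 3 members, beside 30.9%. In the 6-library fit 0 of 6 members and 0% of 14756 genes passed. At an unadjusted p under 0.05, 1 member and 2200 genes (14.9%) were past it in the 6-library fit, and DESeq2 called 1 member and 793 genes (5.37%). With all 6 libraries, KO lay above every WT library in 2 of 6 members, Ly6e and Ly6g, beside 22.5% of genes, and below in 0 members, beside 5.15%. A log2 fold change above 0 was found for 5 of 6 members in each fit, beside 50.7% of genes in the 5-library and 51.4% in the 6-library fit. The members' median log2 fold change was 2.07 in the 5-library fit, beside 0.02 over all genes, and 0.37 in the 6-library fit, beside 0.03.

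**Figure D1:**
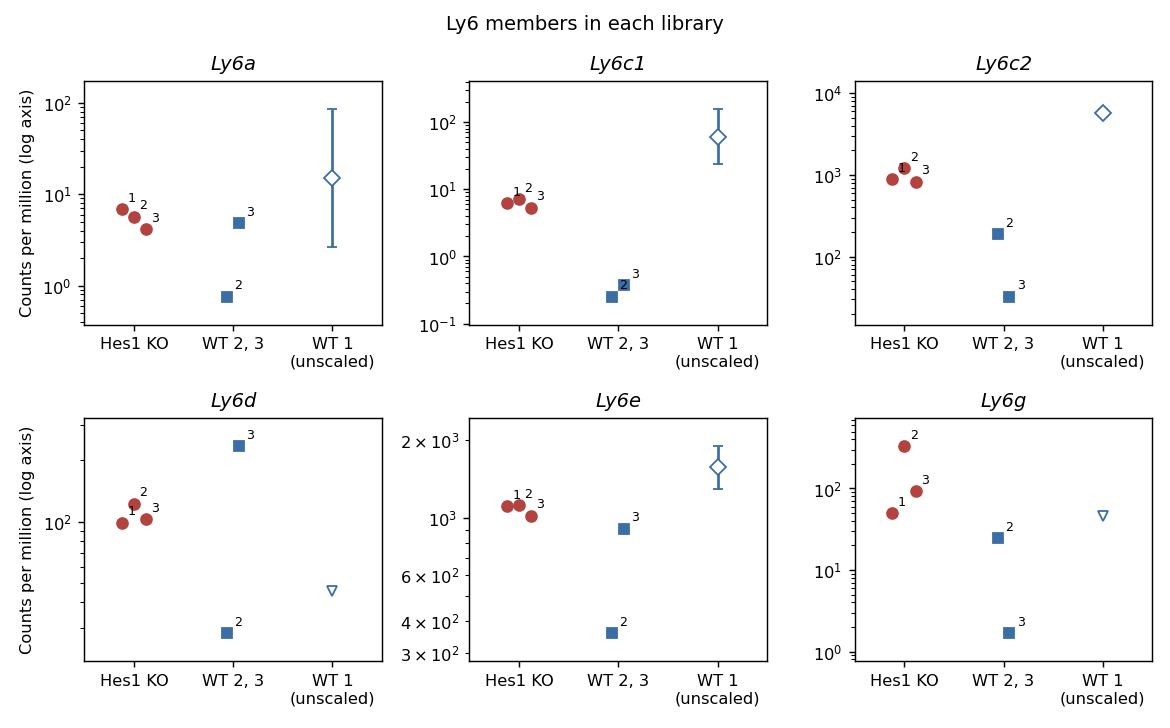
Level of each of the 6 Ly6 genes in every library, in CPM on a logarithmic axis. The 5 deep libraries are TMM-scaled and numbered by replicate, and WT replicate 1 is plain CPM with its 95% Wilson interval, or a triangle at 45.3 CPM where it had 0 counts. Hes1 KO libraries lie above both deep WT libraries for Ly6c1, Ly6c2, Ly6e and Ly6g, and overlap them for Ly6a and Ly6d, which on plain CPM also lie above.

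Ly6g, the neutrophil antigen, had 1384, 7433 and 2351 counts in KO replicates 1 to 3, 194 and 9 in WT replicates 2 and 3 and 0 in WT replicate 1. Scaled, these were 49.6, 333 and 92.4 CPM in KO and 24.5 and 1.67 CPM in the deep WT libraries. The groups did not overlap, but each varied widely: KO libraries spanned 6.73-fold and the WT libraries 14.7-fold. The KO mean was 158 ± 153 CPM (SD, n = 3), 12.1 times the mean of the deep WT libraries. The log2 fold change was 3.59 (SE 1.37) and missed the threshold (edgeR, adjusted p = 0.113). Set against the summed counts of the neutrophil markers, Ly6g gave 1.27, 2.64 and 1.90 per 1000 marker counts in KO and 2.17 and 2.04 in WT replicates 2 and 3. On that scale the WT libraries lay inside the KO range. All 15 neutrophil markers had higher fitted levels in KO (median log2 fold change 3.20). Of these Cxcr2 passed the test (6.67%, beside 7.44% higher over all tested genes), and 0 passed in the 6-library fit.

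Ly6c2, a gene of the monocyte antigen Ly6C, had 24860, 26938 and 21107 counts in KO, 1495 and 175 in WT replicates 2 and 3, and 382 in WT replicate 1. The scaled levels were 891, 1208 and 830 CPM in KO and 189 and 32.5 CPM in the deep WT libraries. KO libraries lay close together (976 ± 203 CPM, SD, n = 3) and above both, at 8.81 times their mean, while WT replicates 2 and 3 differed 5.81-fold. The log2 fold change was 3.14 (SE 0.82, adjusted p = 0.0550, edgeR), just outside the threshold, and DESeq2 gave 3.07 with an adjusted p of 0.000563. WT replicate 1 went the other way: its 382 counts equal 5773 CPM (95% Wilson interval 5224 to 6380, counting error only), above the plain CPM of every KO library (1123, 1272 and 1026). Its inclusion took the fold change to -0.28 (SE 1.35, adjusted p = 0.936). Against 14 monocyte and macrophage markers, Ly6c2 gave 82.1, 56.1 and 73.8 per 1000 marker counts in KO, 90.4 and 57.5 in WT replicates 2 and 3, and 534 in WT replicate 1. On this ratio WT replicate 3 lay inside the KO range, WT replicate 2 somewhat above it and WT replicate 1 far above. Lyz2, which neutrophils also express, supplied 58.3% to 80.8% of the marker counts in KO. Its part was 56.1% and 20.4% in WT replicates 2 and 3, and 4.62% for WT replicate 1. Without Lyz2 the ratio was 197, 292 and 229 in KO, 206 and 72.3 in WT replicates 2 and 3 and 560 in WT replicate 1, so that WT replicate 2 lay inside the KO range and WT replicate 3 below it. WT replicate 1 also had a higher share of endothelial marker counts (0.0484% against 0.00884% to 0.0158% in the other libraries). The same held for T and NK marker counts (0.0831% against 0.00452% to 0.0109%). Each share rested on 1 gene there: Pecam1 gave 31 of 32 endothelial counts, and Nkg7 gave 51 of 55 T and NK counts. They do not show more cells of either type, and their bearing on its Ly6c2 level was not tested. Of the 13 tested monocyte and macrophage markers, 8 rose in the 5-library fit and 0 fell (61.5%, beside 7.44% higher over all tested genes). In the 6-library fit 0 of 12 passed.

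Ly6c1, the near-copy of Ly6c2, had 175, 157 and 136 counts in KO, 2 in each of WT replicates 2 and 3, and 4 in WT replicate 1. The scaled levels were 6.27, 7.04 and 5.35 CPM in KO (6.22 ± 0.850, SD, n = 3) against 0.253 and 0.372 CPM. KO libraries varied 1.32-fold and lay well above both WT libraries. Ly6c1 rose with a log2 fold change of 4.31 (SE 0.41, adjusted p = 0.0294, edgeR). The deep WT libraries together held 4 counts, and the ratio of scaled sums was 20.6, with an exact counting interval of 7.97 to 75.7. In WT replicate 1 the 4 counts equal 60.5 CPM (23.5 to 155), and with that library the fold change was 0.05 (SE 2.09, adjusted p = 0.993). Without any 1 of the KO libraries the 5-library result for Ly6c1 missed the threshold (adjusted p up to 0.132), as did all tested genes. The call also ended with limma-voom (adjusted p = 0.117), with library size only (0.147), with the replicate block (0.272) and for Ly6c1 and Ly6c2 summed (0.0546). Ly6c1 made up 0.699%, 0.579% and 0.640% of the joint Ly6c1 and Ly6c2 counts in KO. The share was 1.13% (95% Wilson interval 0.310 to 4.03) in WT replicate 3, 0.134% (0.0366 to 0.486) in WT replicate 2, and 1.04% (0.404 to 2.63) for WT replicate 1. The intervals of WT replicates 1 and 3 include the KO values, and that of WT replicate 2 lies below all 3. Because of the shared sequence given above the split between these genes is uncertain, and the part of misassigned reads in the Ly6c1 counts was not tested.

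Ly6d, the antigen of B-committed progenitors, had 2758, 2734 and 2619 counts in KO, 223 and 1270 in WT replicates 2 and 3 and 0 in WT replicate 1. The scaled levels were 98.8, 123 and 103 CPM in KO and 28.2 and 236 CPM in the deep WT libraries, so that KO lay between the WT libraries. WT replicate 3 was 8.37 times WT replicate 2, while the KO libraries varied 1.24-fold (108 ± 12.7 CPM, SD, n = 3). The log2 fold change was -0.29 (SE 0.76, adjusted p = 0.799, edgeR). Against 1 deep WT library alone it had opposite signs, 1.98 without WT replicate 3 and -1.12 without WT replicate 2. Those fits do not measure the spread among WT libraries. With both deep WT libraries and library size only in place of TMM scaling, the log2 fold change was 0.83. The other marker genes of the B lineage were lower in KO, 12 of 12 by fitted level with a median of -1.78. Of them 5 fell (Ebf1, Pax5, Rag1, Il7r and Blnk), which is 41.7%, beside 8.09% lower over all tested genes. In the 6-library fit 0 of the 12 passed. Ly6d gave 103, 109 and 64.2 per 1000 B lineage marker counts in KO, and the deep WT libraries gave 5.92 and 30.9, with no overlap. Against 6 markers of plasmacytoid dendritic cells it gave 463, 813 and 540 per 1000 in KO and 1368 and 1382 in the deep WT libraries, again with no overlap and in the opposite direction. These ratios were not tested.

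**Figure D2:**
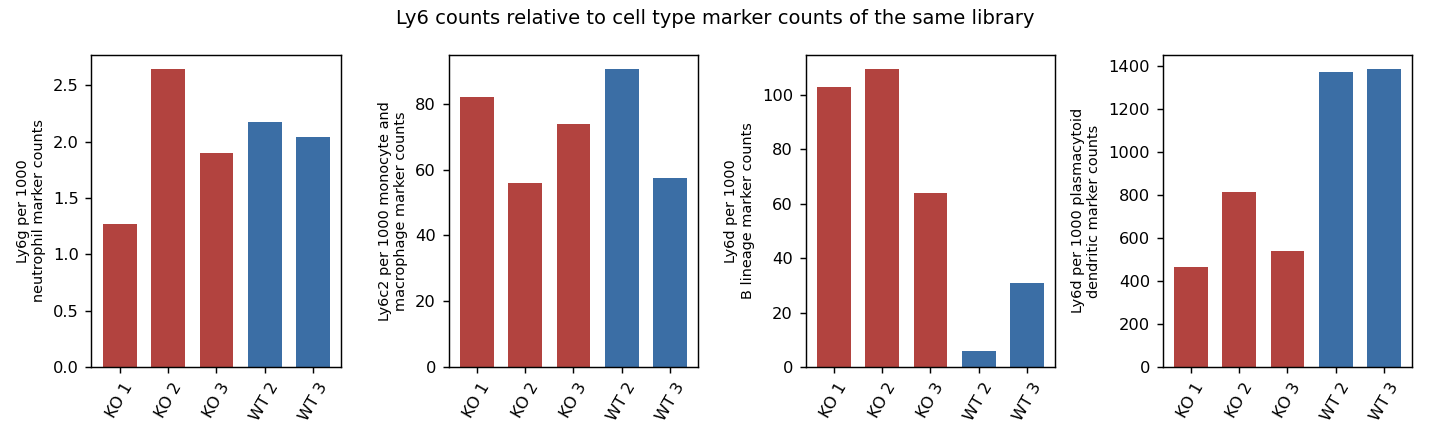
Counts of Ly6g, Ly6c2 and Ly6d per 1000 summed counts of the cell-type markers named in each panel, by library. Ly6g per neutrophil count overlaps between KO and the deep WT libraries, Ly6c2 per monocyte count does so with Lyz2 in the marker sum (without it WT replicate 3 is at 72.3, below the KO range), and Ly6d is higher in KO per B lineage count and lower per plasmacytoid dendritic cell count.

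Ly6a had few counts: 193, 127 and 105 in KO, 6 and 26 in WT replicates 2 and 3, and 1 in WT replicate 1. The scaled levels were 6.91, 5.70 and 4.13 CPM in KO (5.58 ± 1.40, SD, n = 3) and 0.759 and 4.83 CPM in WT. WT replicate 3 lay inside the KO range and WT replicate 2 below it. The log2 fold change was 1.01 (SE 0.75, adjusted p = 0.351, edgeR). Per 1000 counts of 9 stem and progenitor markers, Ly6a gave 19.1, 17.3 and 13.3 in KO, 3.12 and 17.7 in WT replicates 2 and 3 and 28.6 in WT replicate 1, the last from 1 count. Without Gata2, the marker with the most counts, WT replicate 3 (36.0) lay above the KO range (18.4 to 28.9).

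Ly6e, the widely expressed member, had 31070, 24993 and 26007 counts in KO, 2829 and 4895 in WT replicates 2 and 3, and 104 in WT replicate 1. The scaled levels were 1113, 1121 and 1022 CPM in KO and 358 and 910 CPM in the deep WT libraries. KO libraries varied least of all members, 1.10-fold (1086 ± 54.9 CPM, SD, n = 3), and lay above both WT libraries by a mean factor of 1.71. The log2 fold change was 0.78 (SE 0.51, adjusted p = 0.301, edgeR), and it missed the threshold in each alternative of that fit that kept both deep WT libraries. Without WT replicate 3, which leaves 1 deep WT library, it was 1.64. WT replicate 1 had 1572 CPM (1298 to 1904) beside plain values of 1404, 1181 and 1265 CPM in KO. Ly6e in WT replicate 1 was thus at or above the KO level before TMM scaling.

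**Figure D3:**
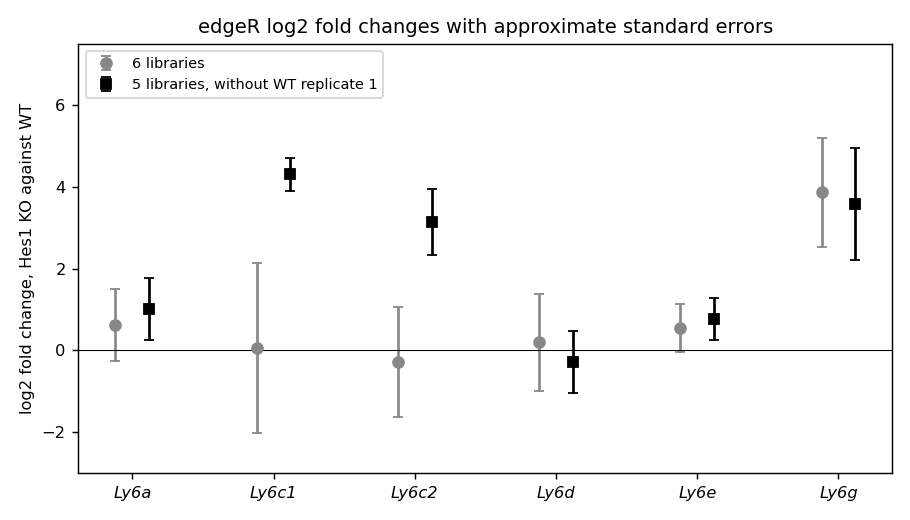
Log2 fold change of Hes1 KO against WT for each Ly6 gene, with bars of 1 SE, from the 5-library and the 6-library edgeR fits. Ly6c1 is the member that passed in the 5-library fit (4.31), and it lies at 0.05 with WT replicate 1 included.

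The 6 genes together took 0.273%, 0.295% and 0.254% of KO counts, 0.0817% and 0.0527% in WT replicates 2 and 3, and 0.742% in WT replicate 1. Ly6c2 and Ly6e supplied most of these counts in every library, in different proportions. Ly6c2 made up 40.3% to 43.2% of the members' counts in KO, 31.5% and 2.74% in WT replicates 2 and 3, and 77.8% in WT replicate 1. Per kilobase of transcript, the KO means ran from Ly6c2 (1188 ± 247 scaled CPM per kilobase, SD, n = 3) through Ly6e (476 ± 24.1), Ly6g (168 ± 163) and Ly6d (145 ± 17.1) to Ly6c1 (7.37 ± 1.01) and Ly6a (5.84 ± 1.46). The neighbours Ly6g and Ly6d, and Ly6c1 and Ly6a, did not differ beyond their spread. With all exons of a gene as its length, Ly6c2 (356 ± 74.2) and Ly6e (287 ± 14.5) also lay within their spread of each other, and the order of Ly6c1 and Ly6a turned. In WT replicate 3 the order was different, with Ly6e (399) and Ly6d (317) above Ly6c2 (39.6).

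WT replicate 3 was unlike WT replicate 2 in more than the Ly6 genes. Erythroid markers took 42.5% of its counts, against 0.0134% in WT replicate 2 and at most 0.319% in KO, and interferon-responsive genes took 0.821%, against 0.0923% in WT replicate 2 and 0.141% to 0.170% in KO. Of the interferon-responsive counts in WT replicate 3, 77.5% came from Rsad2, and the other 29 genes took 0.185% there, 0.0919% in WT replicate 2 and 0.132% to 0.168% in KO. Ly6a, Ly6d and Ly6e were higher in WT replicate 3 than in WT replicate 2 (6.37, 8.37 and 2.54 times) on the TMM scale, and Ly6c2 and Ly6g were lower. On plain CPM the ratios were 2.08 for Ly6a, 2.73 for Ly6d and 0.831 for Ly6e, so the direction of Ly6e turned. Ly6c1, with 2 counts in each of these libraries, also turned, from 1.47 on the TMM scale to 0.480 on plain CPM. The part of the library's makeup in these differences was not tested.

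Genes with the most similar profile over the 5 deep libraries were ranked by root mean square difference of centred log2(CPM + 1), among 10192 genes. The closest to Ly6g were Il1f9 (0.251), Ifitm6 (0.267) and Mmp9 (0.272), the last a neutrophil granule protease. The closest to Ly6c2 were Fn1 (0.128), Pstpip2 (0.195) and Tlr13 (0.224), and to Ly6c1 Fcgrt (0.0942), Gapt (0.100) and Ctsh (0.112). Ly6e was matched most closely by Thoc6 (0.0261), Rpl8 (0.0422) and Trp53rka (0.0593). Ly6d lay nearest Htatip2 (0.104), Uqcrh (0.114) and H2-Oa (0.121), and Ly6a nearest Itgax (0.149), Pdcd5 (0.164) and Micos13 (0.174). The added 1 shrinks differences at low levels, such as those of Ly6c1, at 0.253 and 0.372 CPM in the deep WT libraries. The genes listed for Ly6c1 had log2 fold changes of at most 2.59 (Ctsh, 5-library fit), against 4.31 for Ly6c1 itself. Their likeness to Ly6c1 therefore holds on this offset scale only. The same offset bears on Ly6a, at 0.759 CPM in WT replicate 2. The rankings are descriptions over 5 libraries that share their scaling.

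Other members of the Ly6 and urokinase receptor family were sparse. Of 41 listed genes 25 were in the table and 10 passed the low-count filter. Of these 10, 1 rose and 0 fell (10.0%, beside 15.5% called and 7.44% higher over all tested genes). The gene that rose was Lypd11, with 42, 155 and 77 counts in KO, 2 and 1 in WT replicates 2 and 3 and 0 in WT replicate 1 (log2 fold change 4.06, SE 0.80, adjusted p = 0.0315, edgeR). Its ratio of scaled sums was 16.0, with a counting interval of 5.43 to 78.3. Lypd11, like Ly6c1, passed the low-count filter of that fit through the KO libraries only. Ly6i, which lies between Ly6e and Ly6a, had 45, 50 and 29 counts in KO and 0 and 1 in the deep WT libraries, a ratio of 21.8 with an interval of 3.84 to 867, and missed the threshold (adjusted p = 0.0695). Cd177, a neutrophil surface protein, and Plaur, the urokinase receptor, had the most counts of the list and did not pass (log2 fold changes 2.49 and 1.73).

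The machinery that builds and attaches the GPI anchor was measured in 33 of 34 listed genes, of which 5 rose and 0 fell. The 5 that rose are 15.2% of the genes tested, beside 7.44% higher over all tested genes. In either direction 15.5% of all tested genes were called. The median log2 fold change was 0.47 beside 0.02 over all genes. Gpaa1 (1.16, adjusted p = 0.0304) and Pigs (0.89, adjusted p = 0.0456) encode subunits of the transamidase that joins the anchor to the protein. Pgap1 (1.61, adjusted p = 0.0315) remodels the anchor after attachment, and Pgap6 (1.61, adjusted p = 0.0355) can release anchored proteins. Pigbos1 (1.81, adjusted p = 0.0391) is encoded opposite Pigb and makes a small mitochondrial protein, not an anchor enzyme. It is counted in the 5 and the 33, so the share for anchor genes alone is lower than 15.2%. All p-values are edgeR's, and without the strand setting Pigbos1 and Pigb reads cannot be told apart. Among 30 interferon-responsive genes 1 rose, Mx1 (1.83, adjusted p = 0.0407), and 0 fell (3.33%, beside 15.5% called over all genes), with 15 at higher and 15 at lower fitted levels and a median of -0.02. In the 6-library fit 0 genes of these 3 lists passed.

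**Figure D4:**
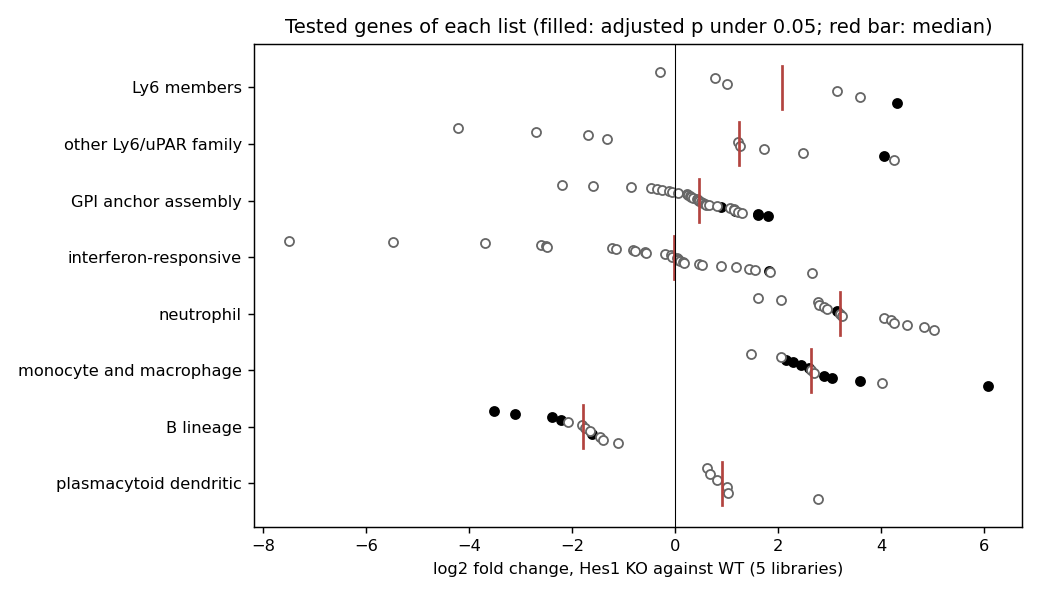
Log2 fold change of each tested gene of the Ly6 members, 3 related lists and 4 marker lists in the 5-library fit, with filled points for genes that passed the test and a line at each list's median. The members' median is 2.07 and that of the interferon-responsive genes -0.02.

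**Figure D5:**
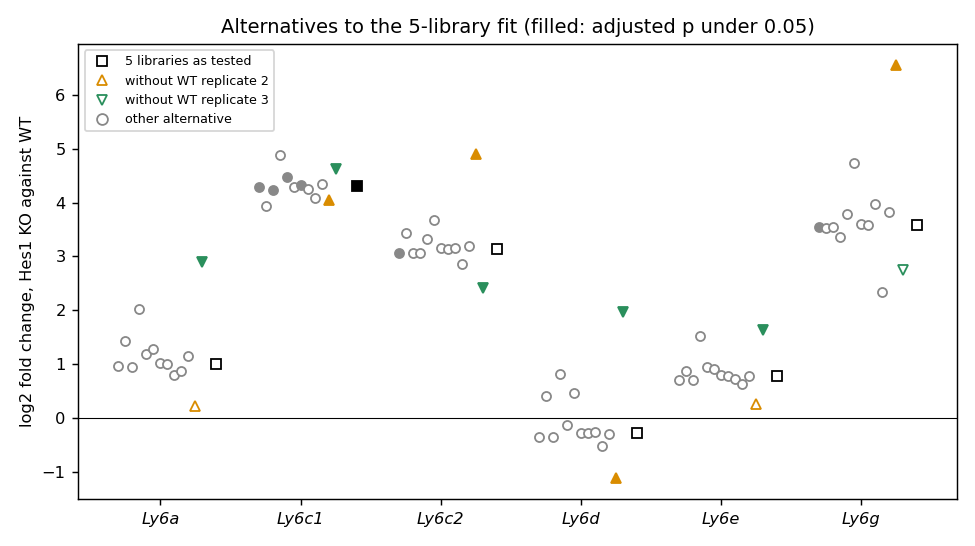
Log2 fold change of each Ly6 gene under every alternative of the 5-library fit, with filled points where the adjusted p was under 0.05. Ly6a, Ly6c1, Ly6c2, Ly6e and Ly6g stay above 0 under each setting. Ly6d changes sign, from -1.12 without WT replicate 2 to 1.98 without WT replicate 3. Filled points of those settings rest on a lone deep WT library, assumed to vary like the KO group.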

How the data were processed

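RNA sequencing of 3 Hes1 KO and 3 WT libraries was deposited as raw counts of reads per gene symbol. The name of the deposited file points to featureCounts as the counter used by the authors. Per the submitters' processing notes, the build was GRCm39, and edgeR and limma were also used. Aligner, annotation, strand setting and versions are not stated there.

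The deposited counts entered edgeR 4.0.16 under R 4.3.3 without change, with filterByExpr, TMM scaling, the quasi-likelihood test with the legacy option off, and Benjamini-Hochberg adjustment over all tested genes at 0.05. The comparison was fitted on all 6 libraries and, because WT replicate 1 is very shallow, on the other 5, with filter and scaling computed anew. The approximate SE is the size of the log2 fold change over the root of F. In the 5-library fit the TMM factor of WT replicate 3 was 0.445 and the others were 1.05 to 1.37. The fits were tested on simulated counts with known changes. Intervals are Wilson intervals at 95%, or exact for ratios of sums, and cover counting error only. Transcript lengths and coding sequences came from GENCODE M21 (GRCm38) by symbol.

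The members and gene lists were chosen with earlier results of these data known. Named genes are the members, Hes1, the genes of each list with the smallest p or highest level, and the 3 genes closest in profile to each member, with a mean of at least 5 CPM. Genes given as having risen or fallen within a marker list are those that passed. Alternatives were DESeq2 1.42.0, limma-voom 3.58.1 with quality weights, other scalings, no filter, a replicate block, removal of haemoglobin genes, Ly6c1 and Ly6c2 summed, and each library left out. Chosen after seeing the data, ratios to marker lists were also computed without the gene of most counts in each list, and WT libraries compared on plain CPM.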

Additional observations from a re-analysis of the deposited data

How the results depend on the processing

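Including WT replicate 1 moves Ly6c1 from a log2 fold change of 4.31 to 0.05 and Ly6c2 from 3.14 to -0.28. In the 6-library comparison Ly6c1 (0.05) became -0.24 with DESeq2, -0.076 with median-of-ratios scaling and -0.36 with library size only, and Ly6c2 became 2.44 with limma-voom and 2.09 with the replicate block. DESeq2 called Ly6g (3.76, adjusted p = 0.0120), 1 member in all, and 793 genes (5.37% of those tested). The median over all genes moved from 0.03 to -0.13 with DESeq2, -0.09 with median-of-ratios scaling, 0.26 with library size only and 0.21 with the replicate block. Leaving out each library in turn, Ly6a ranged from -0.23 to 2.21, Ly6c1 from -1.04 to 4.31, Ly6c2 from -0.82 to 3.14, Ly6d from -0.40 to 2.40, Ly6e from 0.12 to 0.79 and Ly6g from 2.66 to 6.56, with 0 to 1 members and 0 to 2513 genes called. In the 5-library comparison DESeq2 called 3 of 6 members, adding Ly6c2 (3.07) and Ly6g (3.54), and 4997 genes (30.9% of those tested). It called 5 of 10 other family, 9 of 33 GPI anchor and 6 of 30 interferon-responsive genes. Limma-voom (Ly6c1 3.93, Ly6d 0.40), library size only (Ly6c1 4.88, Ly6d 0.83, median of all genes 0.44) and the replicate block (Ly6c1 4.30, adjusted p = 0.272, Ly6d 0.46) each called 0 genes of all, so 0 members and 0 of each list. With Ly6c1 and Ly6c2 summed, 0 members were called (3.14 for the sum, adjusted p = 0.0546). Leaving out each library, Ly6a ranged from 0.21 to 2.91, Ly6c1 from 4.05 to 4.63, Ly6c2 from 2.41 to 4.91, Ly6d from -1.12 to 1.98, Ly6e from 0.26 to 1.64 and Ly6g from 2.34 to 6.56. Calls ranged from 0 to 5 members, 0 to 6210 genes, 0 to 5 other family, 0 to 14 GPI anchor and 0 to 21 interferon-responsive genes. They were 0 genes without any 1 of the KO libraries, 4809 genes and 4 members without WT replicate 2, and 6210 genes and 5 members without WT replicate 3. A lone deep WT library is then assumed to vary like the KO group. Whether the replicate numbers pair the libraries was not settled. Deviations from the group means of same-numbered libraries correlated at 0.155, 0.0126 and 0.233. KO replicates 1 and 3 correlated best with their own number, and KO replicate 2 with WT replicate 1 (0.0160). The WT means include the shallow WT replicate 1, so the check cannot exclude pairing. Without the gene of most counts in each marker list, Ly6d stayed higher in KO per B lineage count (75.1 to 125 against 11.5 and 38.7) and lower per plasmacytoid dendritic cell count (1308 to 2036 against 2896 and 3567), and Ly6g stayed overlapping per neutrophil count. No filter changed the count of all genes called to 1913. The causes were not tested.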

Other observations

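Ly6a2, a neighbour of Ly6c2 and Ly6g that is outside the 6 genes and was chosen after its values were seen, had 8450, 18236 and 8477 counts in KO, 738 and 23 in WT replicates 2 and 3 and 70 in WT replicate 1. The scaled KO levels were 303, 818 and 333 CPM, against 93.3 and 4.28 CPM in the deep WT libraries, without overlap, and the difference did not pass (log2 fold change 3.31, SE 1.29, adjusted p = 0.118, edgeR). Per 100 counts of Ly6c2, Ly6a2 gave 34.0, 67.7 and 40.2 in KO, 49.4 and 13.1 in WT replicates 2 and 3, and 18.3 in WT replicate 1. Its RefSeq promoter window, taken with the others for high identity, was 95.1% identical to that of Ly6c2 and did not hold GAGGAAGT. Of its 50-base windows, 9.58% also occurred in a transcript of another gene.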
